A study of Mus musculus with 8 samples.

Results

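Interferon-stimulated genes are the genes whose transcription rises when a cell senses an interferon, and 43 of them were followed here across naive, Th1, Th2 and Th17 CD4 T cells. They were chosen by name from antiviral and interferon-inducible genes, and all 43 were found among the 23284 gene symbols of the deposited tables. In total, 9 of them are GTPases typically induced by IFNγ, and the other 34 are referred to as the type I class, since they are typically induced by IFNα and IFNβ. RNA was sequenced from CD4 T cells of DO11.10 Tg mice, which carry a transgenic TCR for an OVA peptide, with 2 libraries in each of the 4 groups and 8 libraries in all. Naive cells were CD44low CD62Lhi cells sorted from the spleen and were not cultured. By the methods, the effector cells grew from splenic naive CD4 T cells sorted in the same way. These were cultured for 6 days with OVA peptide and irradiated splenocytes depleted of T cells. Th1 and Th2 cells were both grown with 30 U/ml of IL-2. For Th1 cells this was joined by 100 U/ml of IL-12 and by 1 μg/ml of an Ab to IL-4, and IFNγ was not blocked. For Th2 cells it was joined by 100 U/ml of IL-4 and by 10 μg/ml of an Ab to IFNγ. Th17 cells were grown with 10 ng/ml each of IL-23, IL-6 and IL-1β, and 10 μg/ml each of Abs to IFNγ and IL-4. Culture and antigen therefore separate every effector group from naive cells, and the cytokines cannot be told apart from the culture in the comparisons with naive cells. The labels do not say whether libraries of a group came from separate animals or cultures, so the p-values measure the spread between these libraries, which may be technical.

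IFNα and IFNβ bind a receptor made of IFNAR1 and IFNAR2, and a complex that holds STAT2 and IRF9 then binds the interferon-stimulated response element (ISRE) in promoters. IFNγ, the cytokine that defines Th1 cells, binds IFNGR1 and IFNGR2, and its signal reaches promoters through gamma-activated sites (GAS). IRF1, itself induced by IFNγ, binds ISRE-like sites as well, so that many genes respond to both kinds of interferon, and in CD4 T cells IFNγ can act back on the cells that secrete it.

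Promoter sequences were read for the members first, because the ISRE is the element that most of these genes are known for. RefSeq promoter entries on GRCm38.p6, the assembly called mm10 in the methods, were found for 31 of the 43 members and gave 36 windows of 300 bases (250 before the transcription start site and 50 after it). The ISRE core was searched as GAAANNGAAA and the GAS core as TTCNNNGAA, on both strands, and a match of one could overlap a match of the other. The ISRE core was present in 20 of the 36 windows of the members (55.56%) and in 3.44% of 32851 windows of all promoters. The GAS core was present in 10 of the 36 windows (27.78%) and in 8.3% of all promoter windows. By class, 6 of 8 windows of the GTPases and 14 of 28 of the type I class held the ISRE core. The window of *Ifitm1* (chr7:140967826-140968125) held neither core. It lay within the deposited coordinates of the gene (chr7:140967429-140969827, plus strand), so the bases before that start were not read. The window of *Ifi47* (chr11:49076337-49076636), which also held neither core, lay before the deposited coordinates of the gene (chr11:49087055-49096971) and did not reach them. A match is a description of the letters, not evidence of binding. The stretches of 30 bases below show the first ISRE core in capitals, with any further ISRE match as far as the stretch reaches. They are given for the GTPases that had a core. They are also given for those of the 10 type I class members with the widest range of expression that had one before the start site. The stretches were picked after the values were seen and are written along the strand of the gene.
Gbp7 (chr3:142530273-142530302, plus strand): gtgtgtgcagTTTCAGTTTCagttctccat
Gbp3 (chr3:142559989-142560018, plus strand): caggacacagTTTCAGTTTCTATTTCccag
Gbp2 (chr3:142620594-142620623, plus strand): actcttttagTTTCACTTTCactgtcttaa
Irgm1 (chr11:48871431-48871460, minus strand): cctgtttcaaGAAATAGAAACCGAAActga
Irgm2 (chr11:58214903-58214932, plus strand): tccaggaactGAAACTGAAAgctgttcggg
Igtp (chr11:58199512-58199541, plus strand): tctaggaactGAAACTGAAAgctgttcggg
Ifitm2 (chr7:140955988-140956017, minus strand): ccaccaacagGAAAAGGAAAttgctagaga
Fam26f (chr10:34128017-34128046, minus strand): tgaaaaaaaaGAAAGTGAAAcccggaaggg
Isg15 (chr4:156200877-156200906, minus strand): tatgccgtagGAAAAGGAAACCGAAACAGA
Ifit3 (chr19:34583363-34583392, plus strand): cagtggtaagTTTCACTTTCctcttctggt
The core of the *Gbp* genes shown began 45 to 59 bases before the start site, and that of *Igtp*, *Irgm1* and *Irgm2* began 30 to 64 bases before it. The stretches of the neighbouring genes *Igtp* and *Irgm2* were identical at 29 of 30 bases.

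Expression was given by the authors as FPKM, fragments per kilobase of transcript scaled to the mapped fragments of the library, which allows levels to be compared between genes. Differences between groups were tested with limma on log2(FPKM + 1) fitted over the 8 libraries together. The test covered 11198 genes, those averaging 1 FPKM or more, and differences were called at an adjusted p (Benjamini-Hochberg over those genes) under 0.05. Each difference is given with its standard error, as ± SE, from 2 libraries in each group. The scale understates the change of genes with a low level, and where a group is near 0 the difference depends on the added 1. In all, 40 members passed the filter on low values. The other 3, all antiviral effectors of the type I class, were at or below 2.51 FPKM (*Oas1a*), 0.703 FPKM (*Oasl2*) and 1.62 FPKM (*Rsad2*), each at its highest in naive replicate 2. A further 9 members (*Ifit1*, *Ifit3*, *Oas2*, *Oasl1*, *Mx1*, *Mx2*, *Rtp4*, *Fam26f* and *Ifi44*) passed only through the group in which they were highest, with a mean under 1 FPKM over the other groups, and counts are also given over the remaining 31. The filter itself sets these genes apart in that group, so their calls against it, which the counts over 40 members include, support nothing by themselves.

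Depth, as implied by the confidence intervals in the tables, was 14463466 to 21058286 fragments in each library, with the naive libraries the shallowest. The T cell markers *Cd3e*, *Cd3d*, *Cd4* and *Thy1* summed to 1101 to 1565 FPKM in every library, and the markers of each lineage were highest in the cells of that label. The plasmacytoid dendritic cell gene *Siglech* was at 0 to 0.0199 FPKM. Markers of B cells summed to 2.15 to 11.4 FPKM, those of macrophages or monocytes to 7.92 to 23.2, those of dendritic cells to 0.708 to 3.90, and those of NK cells to at most 0.625. The neutrophil markers *Mpo* and *Elane* were at 2.46 to 4.89 FPKM in replicate 1 of each effector group. In replicate 2 they were at no more than 0.106 FPKM. The other neutrophil markers detected, *S100a8* and *S100a9*, were at no more than 0.663 and 0.309 FPKM in any library. Of the CD8 T cell markers, *Cd8b1* was at 90.5 and 52.8 FPKM in the naive libraries and 8.77 to 12.9 FPKM in effector libraries. *Cd8a* was much lower, at 2.94 and 1.77 FPKM in the naive libraries and 0.0113 to 0.268 FPKM in effector libraries. The part of such cells in the results was not tested. In these bulk samples, fewer cells of a type and less RNA per cell cannot be told apart.

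**Figure D1:**
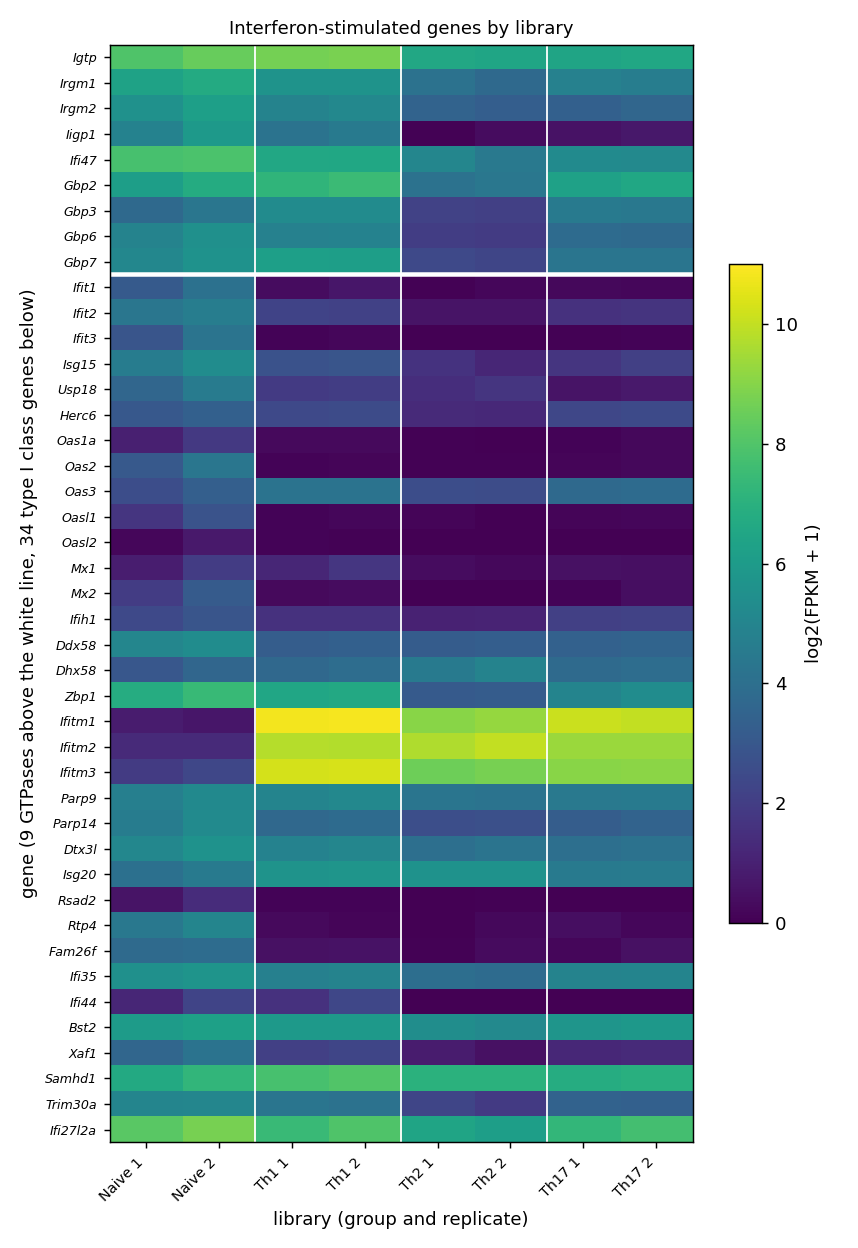
Heat map of log2(FPKM + 1) for the 43 interferon-stimulated genes (rows) in the 8 libraries (columns), with the 9 GTPases above the white line and the 34 type I class genes below it. Most rows are brightest in the naive libraries and darkest in the Th2 libraries, and the 3 *Ifitm* rows run the other way, from at most 4.10 FPKM in naive cells to at least 376 FPKM in effector cells.

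The naive libraries differed from each other in these genes. Of the 40 tested members, 39 were higher in naive replicate 2 than in replicate 1, with a median difference of 0.55 on the log2 scale, whereas over all genes tested 50.8% were higher in replicate 2 and the median difference was 0.0018. *Ifitm1* was the exception. The GTPases and the type I class shared this shift, with medians of 0.54 and 0.55. In the effector groups the replicates lay closer, with 32 of 40 members higher in replicate 2 of Th1 (median 0.09), 19 of 40 in Th2 (from -0.60 to 0.42) and 30 of 40 in Th17 (0.09). Over all genes tested, 60.5% were higher in replicate 2 of Th1 (median 0.05), 46.7% in Th2 (median -0.01) and 62.5% in Th17 (median 0.06). The counts of the comparisons with naive cells are therefore also given without either naive library, and values of single genes where leaving one out ended a call or moved a called value by more than 1.5 times.

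**Figure D2:**
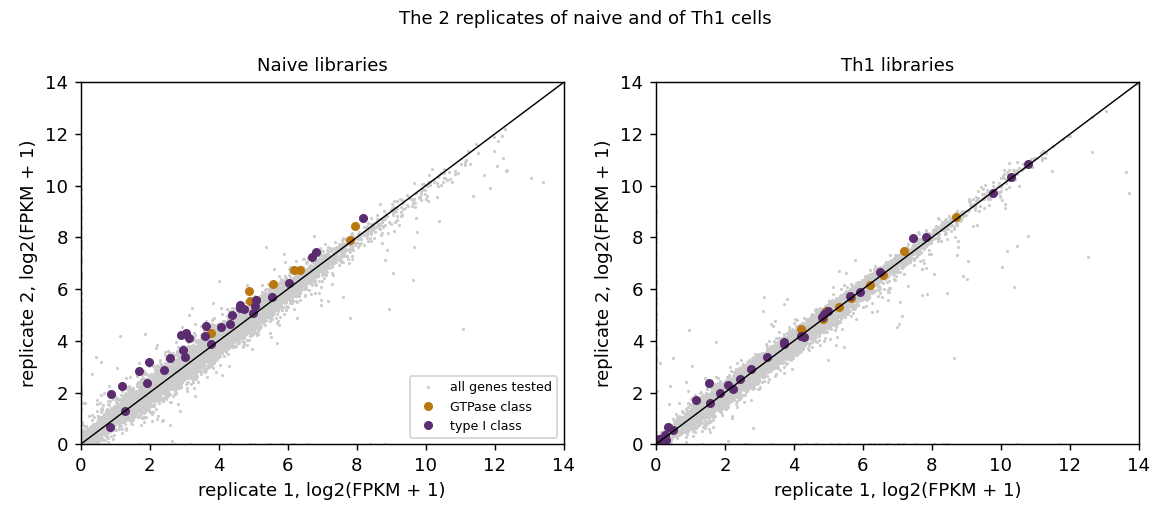
Replicate 2 (y axis) against replicate 1 (x axis), both as log2(FPKM + 1), for the naive libraries (left) and the Th1 libraries (right), with 1 point for each gene tested, members coloured by class and the line of equality in black. In naive cells 39 of 40 members lie above the line, by a median of 0.55, while in Th1 cells the members lie near it, with a median of 0.09.

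The IRG proteins, GTPases that attack the vacuoles of intracellular parasites and bacteria or regulate those that do, were all lower in Th2 and Th17 cells than in naive cells, as were 38.7% and 29.8% of all genes tested, and only *Igtp* was higher in Th1 cells than in naive cells. *Igtp* (chr11:58199556-58207592), a regulatory IRG protein, was at 248 and 348 FPKM in the naive libraries, 414 and 439 FPKM in Th1, 95.7 and 88.8 FPKM in Th2 and 84.2 and 93.3 FPKM in Th17 libraries. Both Th1 libraries were above every other library, and the Th2 and Th17 libraries overlapped. The Th1 minus naive difference was 0.54 ± 0.17, adjusted p = 0.0252, and the call was lost without naive replicate 1 (0.29) or without either Th1 library (0.58 and 0.49). Against Th2 and Th17 cells, *Igtp* was higher in Th1 cells by 2.20 ± 0.17, adjusted p = 9.80e-05 and 2.25 ± 0.17, adjusted p = 0.000155.

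*Irgm1* (chr11:48865249-48871346), another regulatory member, was at 80.7 and 106 FPKM in the naive libraries, 49.1 and 49.3 FPKM in Th1, 16.8 and 12.7 FPKM in Th2 and 27.3 and 24.4 FPKM in Th17 libraries. Its 4 groups did not overlap and followed the order naive, Th1, Th17, Th2. It fell from naive to Th1 cells by 0.90 on the log2 scale (adjusted p = 0.00305) and differed between Th17 and Th2 cells by 0.78 ± 0.17, adjusted p = 0.0112, the latter call being lost without Th2 replicate 2 (0.59) or Th17 replicate 1 (0.71). *Irgm2* (chr11:58214977-58222783), whose exons overlap those of *Igtp* in the annotation so that reads could be divided between them, was at 46.2 and 72.3 FPKM in the naive libraries, 29.3 and 34.5 FPKM in Th1, 10.3 and 8.90 FPKM in Th2 and 9.32 and 11.3 FPKM in Th17 libraries. It was lower in Th1 than in naive cells (-0.84 ± 0.21, adjusted p = 0.0110), a difference of -0.52 without naive replicate 2 and a call that was lost without Th1 replicate 1 (-0.73). The Th2 and Th17 libraries of *Irgm2* overlapped.

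*Iigp1*, an effector IRG protein that loads onto the vacuole itself, had the widest range of the GTPases, with 28.7 and 59.8 FPKM in the naive libraries, 17.3 and 21.2 FPKM in Th1, 0.0598 and 0.295 FPKM in Th2 and 0.459 and 0.636 FPKM in Th17 libraries. It was far higher in Th1 than in Th2 (4.11 ± 0.31, adjusted p = 9.88e-05) and Th17 cells (3.71 ± 0.31, adjusted p = 0.000273), in which at most 40 fragments were implied for it. Th1 cells were nevertheless below naive cells (-1.07 ± 0.31, adjusted p = 0.0193). That last difference was -0.56 without naive replicate 2, and the call was lost without Th1 replicate 1 (-0.94). *Ifi47* (chr11:49087055-49096971) was at 224 and 238 FPKM in the naive libraries, 95.1 and 92.5 FPKM in Th1, 32.2 and 21.0 FPKM in Th2 and 37.9 and 35.1 FPKM in Th17 libraries. It fell in Th1 cells relative to naive cells (-1.29 ± 0.18, adjusted p = 0.000716), fell further in Th2 cells (-3.10 ± 0.18, adjusted p = 8.10e-06) and showed no overlap between groups, although its Th17 minus Th2 difference did not pass the test (0.47 ± 0.18, adjusted p = 0.0787). Reads of *Ifi47* may include those of *Olfr56*, which shares exons with it.

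The GBP proteins, guanylate-binding GTPases that coat pathogen vacuoles and bacteria, had 4 genes among the members. In Th1 cells 3 of these 4 were higher than in naive cells, and of the 5 IRG genes 1 was higher and 4 were lower, beside 33.8% and 33.5% of all genes tested. The families were not tested against each other, and the calls of *Gbp2*, *Igtp*, *Irgm2* and *Iigp1* in this comparison were lost with 1 library left out. *Gbp2* (chr3:142620663-142638008) was at 71.6 and 107 FPKM in the naive libraries, 145 and 178 FPKM in Th1, 16.7 and 19.4 FPKM in Th2 and 78.7 and 92.0 FPKM in Th17 libraries. Th1 libraries were the highest, and the Th17 libraries lay within the range of the naive ones. It was higher in Th1 than in naive cells (0.87 ± 0.21, adjusted p = 0.00840), a call that was lost without Th1 replicate 2 (0.72), and higher in Th17 than in Th2 cells (2.18 ± 0.21, adjusted p = 0.000396). *Gbp3* (chr3:142560052-142573212) was at 12.6 and 18.8 FPKM in the naive libraries, 38.3 and 39.0 FPKM in Th1, 3.43 and 3.20 FPKM in Th2 and 21.6 and 20.4 FPKM in Th17 libraries. The naive libraries were below both Th17 libraries, but the Th17 minus naive difference did not pass the test (0.42 ± 0.17, adjusted p = 0.0592), whereas Th1 cells were higher than naive cells (1.27 ± 0.17, adjusted p = 0.000480).

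*Gbp7* (chr3:142530338-142550083) was at 32.8 and 47.2 FPKM in the naive libraries, 72.2 and 70.5 FPKM in Th1, 4.4 and 3.98 FPKM in Th2 and 18.5 and 18.2 FPKM in Th17 libraries. All 4 groups were separate, and the order was Th1, naive, Th17, Th2, with a Th1 minus Th2 difference of 3.80 ± 0.16, adjusted p = 8.85e-06. *Gbp6*, on chromosome 5, was at 29.3 and 45.2 FPKM in the naive libraries, 27.5 and 28.0 FPKM in Th1, 3.0 and 2.79 FPKM in Th2 and 13.3 and 12.7 FPKM in Th17 libraries. Its Th1 libraries lay below both naive libraries, yet the difference did not pass the test (-0.38 ± 0.18, adjusted p = 0.106), and it fell in Th2 cells (-3.26 ± 0.18, adjusted p = 6.11e-06). The value of *Gbp6* is uncertain, because 65.0% of the words of 50 bases in its transcripts also occur in the annotated gene *Gm43302*.

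**Figure D3:**
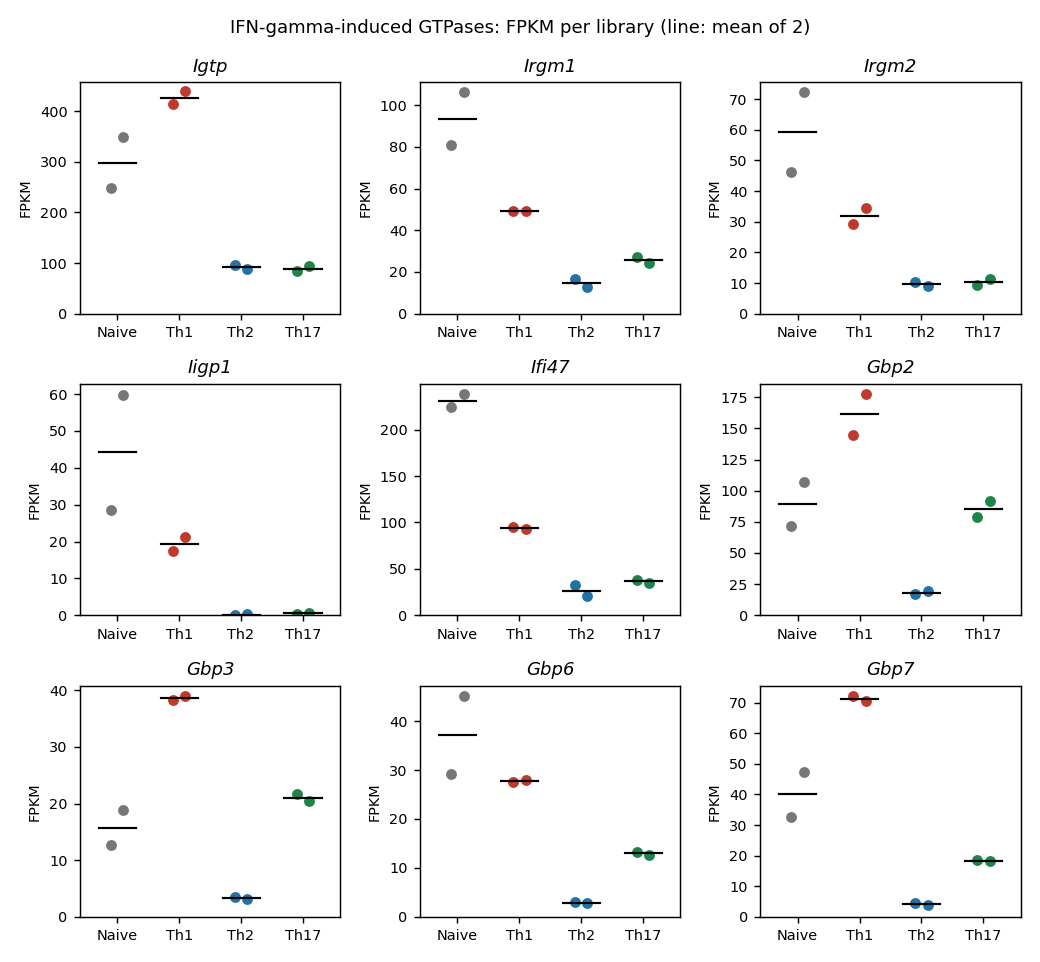
FPKM of the 9 GTPases (y axis, linear from 0) in each library of the 4 groups (x axis), with points for libraries and a line for the mean of 2. Th1 points lie above all others for *Igtp*, *Gbp2*, *Gbp3* and *Gbp7*, naive points lie above all others for the remaining 5 genes, and the Th2 mean is the lowest for every gene except *Igtp*.

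Of the 31 tested type I class members, 22 had their highest mean in naive cells, and several of these were near 0 FPKM in all effector libraries. The 22 include all the members named above that passed the filter only through their highest group, except *Ifi44*. IFIT proteins bind viral RNA and block its translation. *Ifit1* was at 7.77 and 16.1 FPKM in the naive libraries, 0.274 and 0.581 FPKM in Th1, 0.0538 and 0.136 FPKM in Th2 and 0.172 and 0.153 FPKM in Th17 libraries. *Ifit3* was at 6.51 and 17.6 FPKM in the naive libraries, 0.0816 and 0.152 FPKM in Th1, 0 and 0.0278 FPKM in Th2 and 0.0605 and 0.0693 FPKM in Th17 libraries, although 51.2% of its words of 50 bases are shared with *Ifit3b*, so reads may be divided between the pair. *Ifit2* kept a measurable level, with 18.9 and 24.1 FPKM in the naive libraries, 3.67 and 3.42 FPKM in Th1, 0.515 and 0.479 FPKM in Th2 and 1.95 and 2.10 FPKM in Th17 libraries. Both naive libraries were above all 6 effector libraries for the 3 genes, and the Th1 minus naive difference of *Ifit2*, the one of them whose filter did not rest on naive cells, was -2.30 ± 0.13, adjusted p = 6.35e-06. Among the effector subsets, only *Ifit2* of the 3 differed by the test, being higher in Th1 (1.6, adjusted p = 0.000110) and in Th17 cells (1.02, adjusted p = 0.00113) than in Th2 cells, while at most 41 fragments were implied for *Ifit1* and 8 for *Ifit3* in an effector library.

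The ISG15 system attaches the ubiquitin-like protein ISG15 to other proteins. *Isg15*, the modifier, was at 23.6 and 40.4 FPKM in the naive libraries, 5.75 and 6.56 FPKM in Th1, 2.02 and 1.26 FPKM in Th2 and 2.28 and 3.30 FPKM in Th17 libraries, so that naive libraries were the highest, followed by Th1. *Usp18*, which removes ISG15 and restrains signalling at the type I receptor, was at 11.4 and 22.9 FPKM in the naive libraries, 2.66 and 2.97 FPKM in Th1, 1.71 and 2.25 FPKM in Th2 and 0.495 and 0.687 FPKM in Th17 libraries. *Usp18* was the lowest in Th17 and not in Th2 cells, with a Th17 minus Th2 difference of -0.90 ± 0.28, adjusted p = 0.0397, a call that was lost without any single effector library (-0.77 to -1.03). *Herc6*, the mouse ligase for ISG15, ranged from 7.10 to 9.32 FPKM in naive, 4.07 to 4.70 FPKM in Th1 and Th17 and 1.37 to 1.5 FPKM in Th2 libraries, and fell in all 3 subsets relative to naive cells.

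OAS proteins make oligoadenylates that switch on RNase L, and their genes did not share a pattern. *Oas2* was at 7.31 and 18.9 FPKM in the naive libraries, 0.0710 and 0.112 FPKM in Th1, 0.0358 and 0.0544 FPKM in Th2 and 0.110 and 0.170 FPKM in Th17 libraries, and *Oasl1* was detected at 2.20 and 6.03 FPKM in naive cells and at no more than 0.142 FPKM in any effector library. *Oas3*, by contrast, was at 5.06 and 9.05 FPKM in the naive libraries, 17.4 and 17.3 FPKM in Th1, 5.0 and 4.88 FPKM in Th2 and 12.4 and 13.3 FPKM in Th17 libraries. It rose in Th1 cells (1.23 ± 0.21, adjusted p = 0.00185) and in Th17 cells (0.83 ± 0.21, adjusted p = 0.0112) relative to naive cells, the second difference being 0.47 without naive replicate 1 and its call being lost without Th17 replicate 2 (0.78). The naive and Th2 libraries of *Oas3* differed by less (-0.39 ± 0.21, adjusted p = 0.138). The Mx proteins are dynamin-like GTPases that trap viral nucleocapsids. *Mx2* was at 2.93 and 8.05 FPKM in the naive libraries, 0.213 and 0.278 FPKM in Th1, 0.0296 and 0.0300 FPKM in Th2 and 0.0700 and 0.318 FPKM in Th17 libraries. *Mx1* kept in Th1 cells a level within the range of the naive libraries, at 0.827 and 2.83 FPKM in naive and 1.24 and 2.29 FPKM in Th1 cells, against 0.173 to 0.416 FPKM in Th2 and Th17 cells. The Th2 and Th17 libraries of *Mx1* were below both naive libraries, the group through which alone it passed the filter. Its Th2 minus naive difference was -1.11, and the call was lost without naive replicate 2 (-0.58) or either Th2 library (-1.17 and -1.06). The Th17 minus naive call (-0.92) was lost without naive replicate 2 (-0.39) or any single effector library (-0.90 to -0.94). Without naive replicate 1 this Th17 difference was -1.45.

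The sensors of viral nucleic acid did not move together. *Zbp1*, a sensor of Z-form nucleic acid that can start necroptosis, was at 111 and 171 FPKM in the naive libraries, 88.8 and 99.3 FPKM in Th1, 7.74 and 8.16 FPKM in Th2 and 30.6 and 39.3 FPKM in Th17 libraries. Its groups did not overlap, and Th1 exceeded Th2 cells by 3.41 ± 0.21, adjusted p = 4.09e-05 and Th17 cells by 1.41 ± 0.21, adjusted p = 0.00343. The Th1 minus naive difference of *Zbp1* did not pass the test (-0.55 ± 0.21, adjusted p = 0.0537), but it did with the replicate number as a block (adjusted p = 0.0113, within 0.00688 to 0.263 over all alternatives). *Ddx58*, the RIG-I receptor for viral RNA, fell in all 3 subsets, from 32.2 and 39.7 FPKM in naive cells to 8.15 to 10.6 FPKM in the 6 effector libraries. *Ifih1*, a receptor for long double-stranded RNA, was at 4.35 and 6.41 FPKM in naive, 3.18 and 3.44 in Th17, 1.95 and 1.98 in Th1 and 1.1 and 1.16 in Th2 cells. It was the 1 member lower in Th1 than in Th17 cells (-0.54 ± 0.16, adjusted p = 0.0458), and that call was lost without any single effector library (-0.49 to -0.58). *Ifih1* also fell from naive to Th17 cells (-0.55 ± 0.16, adjusted p = 0.0174), by 0.31 without naive replicate 2, and this call was lost without either Th17 library (-0.50 and -0.59). *Dhx58*, a relative of both receptors that modulates them, ran the other way, with 6.84 and 11.5 FPKM in the naive libraries, 12.1 and 14.4 FPKM in Th1, 21.8 and 29.4 FPKM in Th2 and 12.9 and 14.3 FPKM in Th17 libraries. *Dhx58* rose in Th2 cells relative to naive cells (1.41 ± 0.24, adjusted p = 0.00152). It was the 1 member lower in Th1 than in Th2 cells (-0.89 ± 0.24, adjusted p = 0.0227), and this call was lost without either Th1 library (-0.77 and -1.0) or Th2 replicate 2 (-0.68). Its rises in Th1 and Th17 cells passed the test with the replicate block (adjusted p = 0.0131 and 0.00986, within 0.0131 to 0.463 and 0.00986 to 0.380 over all alternatives) and not in the fit without it (0.0916 and 0.0748).

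The IFITM proteins, small membrane proteins that block the fusion of viruses with endosomes, had the widest differences from naive cells of all 40 tested members, in the direction opposite to most of the class. *Ifitm1* was at 0.790 and 0.604 FPKM in the naive libraries, 1778 and 1844 FPKM in Th1, 534 and 621 FPKM in Th2 and 1109 and 1016 FPKM in Th17 libraries. *Ifitm2* was at 1.45 and 1.45 FPKM in the naive libraries, 877 and 847 FPKM in Th1, 832 and 1018 FPKM in Th2 and 640.3 and 656 FPKM in Th17 libraries. *Ifitm3* was at 2.76 and 4.10 FPKM in the naive libraries, 1255 and 1286 FPKM in Th1, 376 and 423 FPKM in Th2 and 525 and 537 FPKM in Th17 libraries. All effector libraries were far above both naive libraries, in which 8 to 42 fragments at most were implied for the 3 genes, and the differences from naive cells ran from 6.51 ± 0.16, adjusted p = 1.98e-07 (*Ifitm3* in Th2) to 10.06 ± 0.12, adjusted p = 9.32e-08 (*Ifitm1* in Th1). Within the effector cells, *Ifitm1* followed the order Th1, Th17, Th2 without overlap, as did *Ifitm3*, whose Th17 minus Th2 difference passed the test with the replicate block (adjusted p = 0.0290, within 0.0245 to 0.270 over all alternatives) and not in the fit without it (0.0697). The Th1 and Th2 libraries of *Ifitm2* differed by less than their spread (-0.09 ± 0.12, adjusted p = 0.555). *Ifitm2* was lower in Th17 than in Th2 cells (-0.51 ± 0.12, adjusted p = 0.0141), a call that was lost without Th2 replicate 2 (-0.36) or either Th17 library (-0.49 and -0.52). A share of 36.1% of the words of *Ifitm2* also occurs in *Gm45717*, which overlaps it.

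PARP9 and DTX3L form a complex that modifies histones and viral proteins, and PARP14 is a related enzyme. *Parp14* fell in all 3 subsets, from 23.5 and 37.5 FPKM in naive cells to 12.0 to 13.6 FPKM in Th1, 8.46 to 10.3 FPKM in Th17 and 5.32 to 5.35 FPKM in Th2 cells. *Parp9* and *Dtx3l*, whose exons overlap on opposite strands so that their reads may not be separable here, stayed within 15.2 to 47.3 FPKM in all libraries. *Dtx3l* was lower in Th2 (-1.21 ± 0.18, adjusted p = 0.000761) and Th17 cells (-1.25 ± 0.18, adjusted p = 0.000717) than in naive cells, while its Th1 minus naive difference passed the test with the replicate block (adjusted p = 0.0162, within 0.0133 to 0.493 over all alternatives) and not in the fit without it (0.0977). The fall of *Parp9* in Th17 cells (-0.52 ± 0.16, adjusted p = 0.0260) was lost without naive replicate 2 (-0.27) or either Th17 library (-0.47 and -0.56).

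Of the remaining antiviral or induced genes, *Rtp4*, a chaperone of receptors at the cell surface, was at 20.1 and 30.9 FPKM in the naive libraries, 0.214 and 0.125 FPKM in Th1, 0 and 0.194 FPKM in Th2 and 0.340 and 0.151 FPKM in Th17 libraries. *Fam26f*, which encodes the membrane protein CALHM6, was at 12.8 and 13.7 FPKM in the naive libraries, 0.408 and 0.467 FPKM in Th1, 0.0373 and 0.265 FPKM in Th2 and 0.141 and 0.424 FPKM in Th17 libraries. Naive libraries were far above the others for both, and at most 15 fragments were implied for either gene in an effector library. *Xaf1*, a partner of inhibitors of apoptosis, was at 11.2 and 17.2 FPKM in the naive libraries, 3.27 and 3.87 FPKM in Th1, 0.800 and 0.388 FPKM in Th2 and 1.33 and 1.49 FPKM in Th17 libraries. *Trim30a*, a ubiquitin ligase that dampens inflammatory signalling, was at 30.9 and 32.3 FPKM in the naive libraries, 18.5 and 16.9 FPKM in Th1, 3.93 and 2.69 FPKM in Th2 and 10.0 and 9.32 FPKM in Th17 libraries. Both fell in all 3 subsets and most in Th2 cells (-3.24 ± 0.21, adjusted p = 1.28e-05 and -2.94 ± 0.14, adjusted p = 3.14e-06), and their libraries showed the order naive, Th1, Th17, Th2 without overlap.

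*Ifi44* behaved like *Mx1*, at 1.27 and 3.72 FPKM in naive, 1.92 and 4.12 FPKM in Th1 and no more than 0.0153 FPKM in Th17 libraries, and was listed at 0 in both Th2 libraries. The nuclease gene *Isg20* rose in Th1 (1.37 ± 0.15, adjusted p = 0.000223) and Th2 cells (1.3 ± 0.15, adjusted p = 0.000255), to 47.9 to 52.1 FPKM in those 4 libraries from 15.8 and 22.5 FPKM in naive cells, and not by the test in Th17 cells (0.24 ± 0.15, adjusted p = 0.204). *Samhd1*, an enzyme that depletes deoxynucleotides, rose in Th1 cells alone by the test, to 225 and 261 FPKM (0.95 ± 0.18, adjusted p = 0.00325), against 103 to 152 FPKM in the other groups. *Bst2*, which encodes tetherin, a protein that holds budding virus on the cell, ranged from 34.8 to 75.2 FPKM over all libraries. The *Bst2* call in Th17 cells (-0.34 ± 0.12, adjusted p = 0.0358) was lost without naive replicate 2 (-0.23), either Th17 library (-0.30 and -0.39) or either Th1 library (-0.34 each). *Ifi35*, a gene of an interferon-induced leucine zipper protein, fell in all 3 subsets, with a Th2 minus naive difference of -1.71 ± 0.10, adjusted p = 8.96e-06. *Ifi27l2a*, which encodes a small mitochondrial protein, was abundant, at 290.4 and 427 FPKM in naive and 71.6 to 251 FPKM in effector libraries. Its fall in Th1 cells (-0.75 ± 0.26, adjusted p = 0.0365) was lost without naive replicate 2 (-0.47), Th1 replicate 1 (-0.49) or either Th2 library (-0.75 each), and its fall in Th17 cells (-0.97 ± 0.26, adjusted p = 0.0130) was lost without naive replicate 2 (-0.69) or Th17 replicate 1 (-0.76).

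To compare the classes between naive and effector cells, the members were counted against all genes tested. In Th1 cells 10 of 40 members were higher and 22 lower than in naive cells, where 33.8% of all genes tested were higher and 33.5% lower. The GTPases were divided, with 4 of 9 higher and 4 lower, and the type I class was mostly lower, with 6 of 31 higher and 18 lower. In Th2 cells, 5 members were higher and 33 lower (31.8% and 38.7% of all genes), including all 9 GTPases on the lower side and 24 of 31 of the type I class. In Th17 cells, 4 members were higher and 31 lower (37.5% and 29.8% of all genes), with 7 of 9 GTPases and 24 of 31 of the type I class lower. Over the 31 members that did not rest on a single high group, the counts were 10 higher and 15 lower for Th1, 5 higher and 24 lower for Th2 and 4 higher and 22 lower for Th17 cells. Without naive replicate 1 the counts over all 40 members were 9 and 25, 5 and 34, and 4 and 31 in Th1, Th2 and Th17 cells, and without naive replicate 2 they were 11 and 21, 5 and 32, and 7 and 27. The rise from 4 to 7 members higher in Th17 cells came with the library of the higher interferon-stimulated gene levels left out.

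The median difference from naive cells was -0.38 over the GTPases and -0.76 over the type I class in Th1 cells, -2.58 and -1.97 in Th2 cells, and -1.72 and -1.57 in Th17 cells, whereas the median of all genes tested was -0.01, -0.11 and 0.08. Over the 22 type I class members that did not rest on a single high group, it was closer to 0, at -0.63 for Th1, -1.64 for Th2 and -0.74 for Th17 cells, so that the Th17 median of the class depended on members that the filter kept through naive cells. The GTPase median in Th1 cells depended on the naive library, at -0.68 without replicate 1 and -0.07 without replicate 2. Both naive libraries lay above all 6 effector libraries for 5 of 9 GTPases and 21 of 31 type I class members, 26 of 40 in all, and for 31.1% of all genes tested. Without the members that rested on a single high group, these counts were 5 of 9 and 14 of 22, 19 of 31 in all. These comparisons with naive cells share the same 2 naive libraries and are given side by side, not as independent results.

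The effector subsets, which share antigen and days of culture but differ in cytokines and Abs, were then compared with each other. In the comparisons with Th1 cells, the block of IFNγ cannot be told apart from the cytokines and the Ab to IL-4. Against Th17 cells, it cannot be told apart from the added IL-2 either. Between Th1 and Th2 cells, 28 of 40 members were higher in Th1 and 1 was lower (27.4% and 16.9% of all genes tested), and all 9 GTPases and 19 of 31 type I class members were among the higher ones. Of these 29 calls, 24 held with any library left out, among them all 9 GTPases, and the call of *Mx1* was lost without Th1 replicate 2 (0.87), either Th2 library (1.21 and 1.09) or either Th17 library (1.15 each). The calls of *Ifih1* (0.46 to 0.50 without any single effector library), *Dtx3l* (0.74 without Th1 replicate 2 and 0.73 without Th2 replicate 1), *Samhd1* (0.80 without Th1 replicate 2) and *Dhx58*, described above, were lost as well. The median difference was 2.88 over the GTPases, 0.83 over the type I class (1.04 over the 22 that did not rest on 1 group) and 0.11 over all genes tested. Over the 31 members of both classes that did not rest on 1 group, 26 were higher and 1 was lower.

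Between Th17 and Th2 cells, for both of which IFNγ was blocked, 16 of 40 members were higher in Th17 and 4 were lower (31.7% and 12.0% of all genes). Over the 31 members that did not rest on 1 group, the same numbers were 16 and 4. All 4 GBP genes were higher in Th17 cells, by 1.85 to 2.35, but only *Irgm1* of the 5 IRG genes was. In the type I class 11 of 31 were higher, led by *Zbp1* (2.00 ± 0.21, adjusted p = 0.000621) and *Trim30a* (1.32 ± 0.14, adjusted p = 0.000679), and the 4 lower ones were *Usp18*, *Dhx58*, *Ifitm2* and *Isg20*. In total 7 of these 20 calls were lost with a single library left out. Beside those of *Irgm1*, *Usp18*, *Dhx58* (-0.85 ± 0.24, adjusted p = 0.0271, and -0.64 without Th2 replicate 2, -0.78 and -0.92 without either Th17 library) and *Ifitm2*, they were *Bst2* (0.43 without Th2 replicate 2 and 0.49 without Th17 replicate 2), *Ifi27l2a* (1.09 without Th2 replicate 2 and 0.99 without Th17 replicate 2) and *Parp14* (0.58 to 0.84 without any single effector library). With the replicate block, *Ddx58* passed as well (0.25, adjusted p = 0.0418, within 0.0418 to 0.684 over all alternatives, against 0.140). The median difference was 0.78 over the GTPases, 0.24 over the type I class (0.57 over the 22) and 0.18 over all genes.

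Th1 and Th17 cells were the pair with the fewest calls over all genes, and 23 of 40 members were higher in Th1 and 1 was lower, whereas 9.17% and 16.0% of all genes tested were. Over the 31 members that did not rest on 1 group, 22 were higher and 1 was lower. All 9 GTPases were higher in Th1 cells, from 0.85 ± 0.17, adjusted p = 0.0111 for *Gbp3* to 3.71 ± 0.31, adjusted p = 0.000273 for *Iigp1*, and 14 of 31 of the type I class were. These calls depended on both libraries of each group. With any library left out, 9 of the 24 calls held, namely *Igtp*, *Irgm2*, *Iigp1*, *Ifi47*, *Gbp7*, *Zbp1*, *Ifitm1*, *Ifitm3* and *Isg20*, and the number of members higher in Th1 cells was 14 without Th1 replicate 1, 11 without Th1 replicate 2, 13 without Th17 replicate 1 and 10 without Th17 replicate 2. Among the GTPases, the values without the library that ended the call were 0.83 to 0.91 for *Irgm1*, 0.76 to 1.02 for *Gbp2*, 0.81 to 0.89 for *Gbp3* and 1.00 for *Gbp6*, in each case without a Th1 or Th17 library. In the type I class the calls so lost were *Ifit2* (0.54 to 0.63), *Usp18* (1.17 to 1.35), *Dtx3l* (0.77 to 0.94), *Ifi44* (1.53 to 1.94), *Xaf1* (0.83 to 1.02), *Trim30a* (0.75 to 0.76) and *Samhd1* (0.95), and those lost also without a library of another group were *Isg15* (0.73 to 1.12), *Parp9* (0.51 to 0.67), *Ifitm2* (0.39 to 0.44) and *Ifih1*. The median difference was 1.34 over the GTPases, 0.41 over the type I class and -0.08 over all genes tested, and the class medians stayed within 1.29 to 1.39 and 0.35 to 0.48 with each library left out in turn. Over the 22 type I class members that did not rest on 1 group, the median was 0.59.

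**Figure D4:**
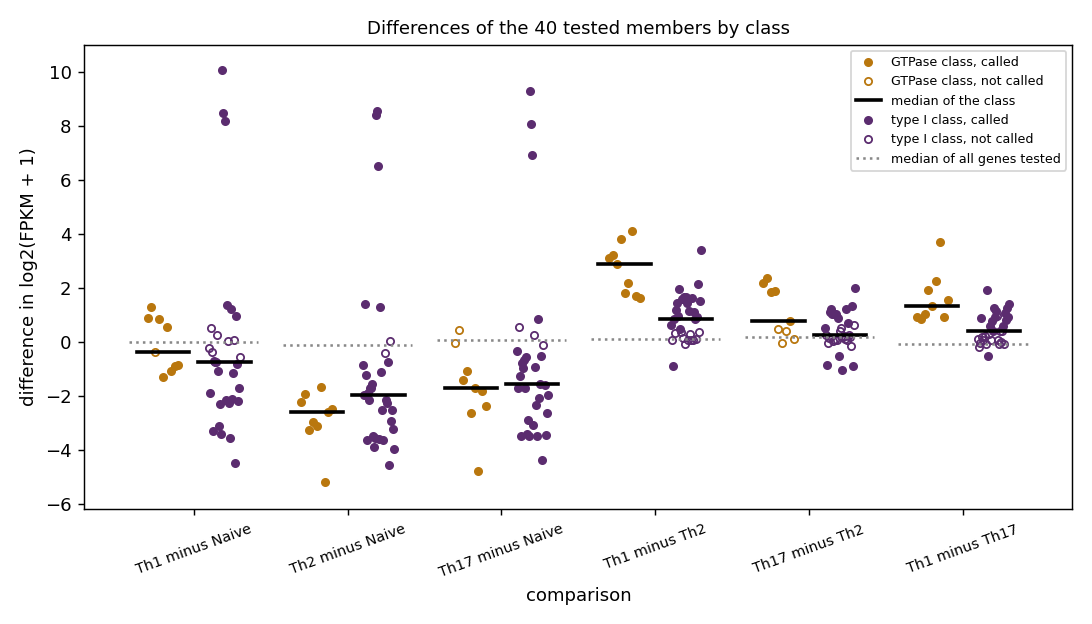
Difference in log2(FPKM + 1) (y axis) of the 40 tested members in the 6 comparisons (x axis), with filled points for called members and open points for others, a black line for the median of each class and a dotted line for the median of all genes tested. The GTPases lie above the dotted line in all cases for Th1 minus Th2 and Th1 minus Th17, with medians of 2.88 and 1.34, and the 3 points near the top of each comparison with naive cells are *Ifitm1*, *Ifitm2* and *Ifitm3*.

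The order Th1 above Th17 above Th2, with no overlap between libraries, was found for 7 of 9 GTPases and 15 of 31 type I class members, 22 of 40 in all, and for 10.3% of all genes tested. Without the members that rested on 1 group, it was found for 11 of 22 in the type I class and 18 of 31 in all. The exceptions among the GTPases were *Igtp* and *Irgm2*, whose Th17 and Th2 libraries overlapped. Th2 cells had the lowest group mean in 8 of 9 GTPases and in 23 of 31 type I class members, and Th17 cells had it in 1 and 3. Naive cells had the highest mean in 5 GTPases and 22 type I class members, Th1 cells in 4 and 7, Th2 cells in 0 and 2, and Th17 cells in none of either class. The 22 include *Ifit1*, *Ifit3*, *Oas2*, *Oasl1*, *Mx1*, *Mx2*, *Rtp4* and *Fam26f*, which passed the filter only through naive cells. The 7 include *Ifi44*, which passed it only through Th1 cells. Counts of highest and lowest means were not made over all genes tested. The class level, as the median log2(FPKM + 1) over the 9 GTPases, was 5.56 and 6.20 in naive libraries, 5.65 in both Th1 libraries, 4.50 and 4.42 in Th17 libraries, and 3.49 and 3.31 in Th2 libraries. Over all 34 members of the type I class, it was 3.37 and 4.20 in naive libraries, 2.60 and 2.72 in Th1 libraries, 2.20 and 2.30 in Th17 libraries, and 1.52 and 1.47 in Th2 libraries. On this scale, the GTPases of Th1 cells were within the range of the naive libraries, and the type I class of every effector library was below both naive libraries.

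The ligands, receptors and factors upstream of these genes were described from a list of 40 further pathway genes. All of these were in the tables, and 38 were tested. Most genes of the list are not upstream ones but further interferon-induced genes, like the members. *Ifng* was at 0.218 and 0.437 FPKM in the naive libraries, 802 and 614 FPKM in Th1, 0 and 0.165 FPKM in Th2 and 0.433 and 2.19 FPKM in Th17 libraries, so that no library outside Th1 exceeded 2.19 FPKM (9.35 ± 0.35, adjusted p = 5.35e-06 for Th1 minus Th2), and *Ifnb1* was listed at 0 in all libraries. The IFNγ receptor chains moved in opposite directions in Th1 cells. *Ifngr1*, the ligand-binding chain, was at 68.2 and 57.1 FPKM in the naive libraries, 239.5 and 238 FPKM in Th1, 40.9 and 32.8 FPKM in Th2 and 53.3 and 55.5 FPKM in Th17 libraries, and *Ifngr2*, the signalling chain, was at 41.2 and 37.8 FPKM in the naive libraries, 1.55 and 1.19 FPKM in Th1, 15.4 and 16.0 FPKM in Th2 and 16.2 and 17.8 FPKM in Th17 libraries. Th1 libraries were the highest of all for *Ifngr1* (1.92 ± 0.14, adjusted p = 2.24e-05 against naive cells) and the lowest of all for *Ifngr2* (-4.10 ± 0.11, adjusted p = 3.42e-07).

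Of the type I receptor, *Ifnar1* fell from 29.0 and 29.9 FPKM in naive cells to 8.86 to 11.4 FPKM in the effector libraries, and *Ifnar2* was at 16.5 to 26.3 FPKM in all libraries. The transcription factor *Stat2* did not pass the test in any comparison, with values of 19.8 to 32.5 FPKM. *Irf1* was at 208 and 233 FPKM in the naive libraries, 75.9 and 88.8 FPKM in Th1, 25.1 and 25.5 FPKM in Th2 and 18.9 and 20.7 FPKM in Th17 libraries, and *Irf7*, the amplifier of the type I response, was at 52.5 and 89.5 FPKM in the naive libraries, 6.29 and 7.83 FPKM in Th1, 2.60 and 2.32 FPKM in Th2 and 3.89 and 3.42 FPKM in Th17 libraries. Both were highest in naive cells, as was *Irf9* at 62.7 and 78.7 FPKM against 13.8 to 25.5 FPKM in effector libraries. *Socs1*, a brake on both pathways, rose in all 3 subsets, from 35.5 and 35.0 FPKM in naive cells to 123 to 233 FPKM in effector libraries.

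Over the 38 tested pathway genes, 8 were higher and 22 lower in Th1 than in naive cells (33.8% and 33.5% of all genes tested), 6 and 28 in Th2 cells (31.8% and 38.7%), and 6 and 23 in Th17 cells (37.5% and 29.8%). Most of the 38 are further induced genes, so these counts do not describe the upstream genes alone. Leaving out a single library ended the Th1 minus naive calls of *Tyk2*, *Socs3*, *Gbp8*, *Gbp10*, *Trim25*, *Psmb8* and *Tap1*. The calls of *Ifnar2* and *Gbp11* in Th2 minus naive, and of *Gbp4* in Th17 minus naive, were lost in the same way. In the comparisons of effector subsets, 25 were higher and 5 lower in Th1 than in Th2 cells (27.4% and 16.9% of all genes tested), 21 and 3 in Th17 than in Th2 cells (31.7% and 12.0%), and 13 and 3 in Th1 than in Th17 cells (9.17% and 16.0%). Some of these calls were also lost with a single library left out. For Th1 minus Th2 they were *Ifnar2*, *Jak1*, *Socs1*, *Lgals3bp* and *Sp100*, and for Th1 minus Th17 *Socs3*, *Gbp4*, *Gbp10* and *Nlrc5*. For Th17 minus Th2 they were *Ifngr1*, *Jak2*, *Tyk2*, *Irf1*, *Irf9*, *Gbp9*, *Eif2ak2*, *Adar*, *Lgals3bp*, *Sp100*, *Psmb8* and *Psmb9*. The IRG genes *Tgtp1* and *Tgtp2*, near-identical copies whose reads may be divided between them, were at 82.6 and 79.6 and 69.0 and 67.8 FPKM in Th1 and at 2.91 to 4.13 FPKM in Th2 cells, with naive cells the highest at 124 to 147 FPKM. *Nlrc5*, the activator of MHC class I genes, was at 42.1 and 73.3 FPKM in naive, 31.8 and 37.8 in Th1, 10.4 and 15.1 in Th17 and 3.19 and 2.73 in Th2 cells, again in the order of *Zbp1*, although its Th1 minus naive difference did not pass the test (-0.67 ± 0.27, adjusted p = 0.0666).

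**Figure D5:**
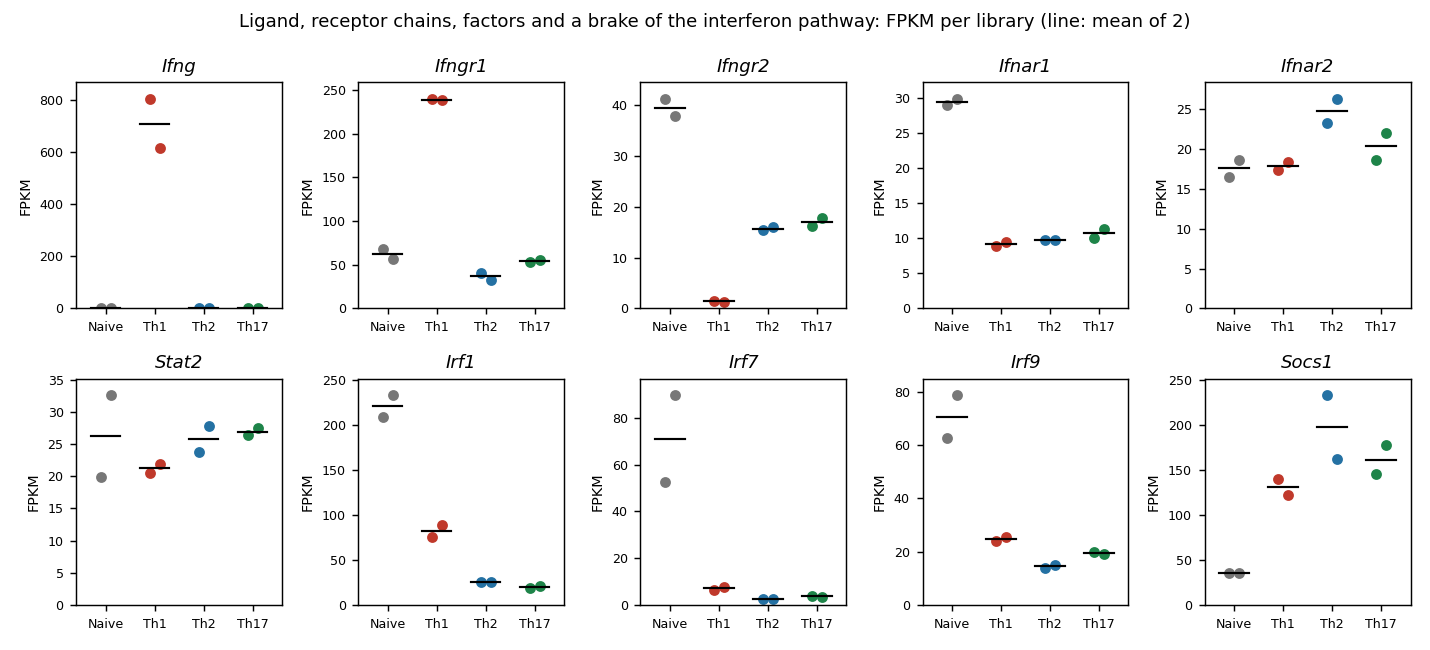
FPKM (y axis, linear from 0) of *Ifng*, 4 receptor chains, 4 transcription factors and the brake *Socs1* of the interferon pathway in each library of the 4 groups (x axis), with points for libraries and a line for the mean of 2. *Ifng* and *Ifngr1* are highest in Th1 cells, *Ifngr2* is lowest there, *Irf1*, *Irf7* and *Irf9* are highest in naive cells, and *Socs1* is lowest there.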

How the data were processed

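Gene expression was measured by RNA sequencing of naive, Th1, Th2 and Th17 cells, with 2 libraries per group assigned by their labels. The authors aligned reads to mm10 with Bowtie 0.12.8 and TopHat 1.3.2 and deposited FPKM per gene, with a confidence interval, from Cufflinks 2.0.2. The methods name an unstranded kit and the labels a stranded one, so genes that overlap on opposite strands may share reads. The interval was used only to imply fragment numbers, which cover counting error alone.

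Rows of a symbol were summed. log2(FPKM + 1) was fitted with limma 3.58.1 (R 4.3.3, lmFit and eBayes with trend) over all 8 libraries, for 11198 genes with a mean of at least 1 FPKM, with two-sided tests and Benjamini-Hochberg adjustment. The fit was checked on made-up data with known changes. Figures used Python 3.11.15, pandas 2.3.3, numpy 2.4.6 and matplotlib 3.10.9.

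The members and all gene lists were chosen with earlier results of these data known. Values of every library are given for the 9 GTPases and the 15 tested type I class genes with the widest range of group means, and the other members are given by range. Pathway genes were named by role, and *Tgtp1*, *Tgtp2* and *Nlrc5* after their values were seen. Replicate numbers in the titles were not used as pairs in the main fit, which gave the calls. The deviations of same-numbered libraries correlated over genes in all 6 pairs of groups (r = 0.138 to 0.294). The replicate number was therefore used as a block in an alternative fit. Alternatives were other pseudocounts and filters, median scaling, quantile normalization, a fit of 2 groups, no trend, the replicate block, 1 row per symbol and each library left out. Shared sequence was counted over GENCODE transcripts as words of 50 bases. Protein sequences were not used here, and 1 gene of the pathway list is not reported here.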

Additional observations from a re-analysis of the deposited data

Results flagged for a closer look

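In 32 of the 40 tested members, the change from the naive libraries differed between effector subsets by the limma test of the difference itself, as it did in 59.9% of all genes tested. Over the 31 members that passed the filter on low values through more than 1 group, it did in 30. Of the 32 differences, 30 favoured Th1 or Th17 cells over the subset compared. The comparisons share the naive libraries, which drop out of the difference. Values are the widest such difference of each gene, in log2(FPKM + 1).

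For 24 members it was Th1 minus Th2. Among the GTPases it was 4.11 for *Iigp1*, 3.80 for *Gbp7*, 3.20 for *Gbp3*, 3.09 for *Gbp2*, 2.88 for *Gbp6*, 1.81 for *Ifi47*, 1.68 for *Irgm1* and 1.64 for *Irgm2*. In the type I class it was 3.41 for *Zbp1*, 2.13 for *Trim30a*, 1.95 for *Ifi44*, 1.67 for *Ifitm3*, 1.65 for *Ifitm1*, 1.63 for *Oas3*, 1.6 for *Ifit2*, 1.53 for *Xaf1*, 1.45 for *Isg15*, 1.42 for *Ifi27l2a*, 1.19 for *Herc6*, 1.15 for *Mx1*, 1.12 for *Parp14*, 0.83 for *Parp9*, 0.64 for *Bst2* and -0.89 for *Dhx58*. The value of *Ifi44* rests on Th2 libraries listed at 0 and depends on the added 1, and the gene passed the filter only through Th1 cells.

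For 5 members it was Th1 minus Th17, at 2.25 for *Igtp*, 1.26 for *Usp18*, 1.13 for *Isg20*, 1.06 for *Samhd1* and 0.87 for *Dtx3l*. For 3 members it was Th17 minus Th2, at 1.03 for *Ifi35*, 1.02 for *Ifih1* and -0.51 for *Ifitm2*. The calls among these that were lost without 1 library are named with the results above for Th1 minus Th2 and Th17 minus Th2, and for Th1 minus Th17 they were *Usp18* (1.17 to 1.35), *Samhd1* (0.95 without Th1 replicate 2) and *Dtx3l* (0.77 to 0.94).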

How the results depend on the processing

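Of 2334 single-gene values under the settings other than leaving out a library, 2266 kept their direction and side of the threshold, 31 lost a call, 16 gained one and 21 changed sign. With each library left out, these numbers were 1748, 130, 17 and 25 of 1920. The replicate block changed 6 calls, all given above, and no other call.

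With a pseudocount of 0.1, the medians moved to -2.43 (type I class, Th2 minus naive), 3.15 and 1.24 (GTPases and type I class, Th1 minus Th2) and 1.35 and 0.67 (Th17 minus Th2). Without a filter, the type I median of Th17 minus naive was -1.24, and the members called lower numbered 2 for Th17 minus Th2 and 0 for Th1 minus Th17. With a filter at 5 FPKM, which leaves fewer members, 13 were lower in Th1 and 20 in Th17 than in naive cells, 0 in Th1 than in Th17, and the type I medians were -1.46 in Th2 and -0.82 in Th17. The 1 member lower in Th1 than in Th17 was also lost with median scaling and quantile normalization (0 each), and the latter moved the GTPase median of Th17 minus naive to -2.01. The causes were not tested.

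Signs changed only for differences that were not called. With median scaling, Th1 minus Th2 was -0.0147 for *Ddx58* and -0.0247 for *Isg20*, Th17 minus Th2 -0.0765 for *Irgm2*, and Th1 minus Th17 0.0443 for *Dhx58* and 0.00767 for *Ifi35*. With quantile normalization, Th1 minus naive was -0.10 for *Ifi44* and -0.45 for *Mx1*, Th2 minus naive -0.0398 for *Samhd1*, and Th1 minus Th2 -0.0260 for *Ddx58* and -0.0478 for *Isg20*. Th17 minus Th2 was -0.0622 for *Fam26f*, -0.0652 for *Ifit1*, -0.00894 for *Ifit3*, -0.0882 for *Irgm2*, -0.0603 for *Mx1*, -0.0259 for *Oas2* and -0.0565 for *Oasl1*, and Th1 minus Th17 was 0.0360 for *Dhx58*, 0.0694 for *Oas2*, 0.0947 for *Oasl1* and 0.0664 for *Rtp4*.

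With each library left out, Th1 minus naive ran from -0.29 to 0.77 for *Ifi44*, -0.50 to 0.57 for *Mx1* and -0.17 to 0.32 for *Parp9*, Th2 minus naive from -0.23 to 0.32 for *Samhd1*, and Th17 minus naive from -0.32 to 0.25 for *Gbp2* and -0.39 to 0.17 for *Samhd1*. Th1 minus Th2 ran from -0.00352 to 0.15 for *Ddx58*, -0.24 to 0.0506 for *Ifitm2* and -0.0311 to 0.22 for *Rtp4*. Th17 minus Th2 ran from -0.14 to 0.0715 for *Dtx3l*, -0.00498 to 0.31 for *Fam26f*, -0.13 to 0.0165 for *Igtp* and -0.0320 to 0.21 for *Irgm2*. Th1 minus Th17 ran from -0.15 to 0.0767 for *Dhx58*, -0.0369 to 0.48 for *Ifi27l2a*, -0.0825 to 0.22 for *Mx2*, -0.0705 to 0.0271 for *Oasl1* and -0.20 to 0.0214 for *Rtp4*. The GTPase median ran from -0.68 to -0.0747 (Th1 minus naive) and -1.96 to -1.47 (Th17 minus naive), and the type I median of Th17 minus naive from -1.64 to -1.17. Members called higher numbered 3 to 7 (Th17 minus naive) and 10 to 24 (Th1 minus Th17), and those called lower 0 to 1 (Th1 minus Th2), 1 to 4 (Th17 minus Th2) and 0 to 1 (Th1 minus Th17).

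With 2 libraries per group the spread is itself poorly known, and the lone library of a group is assumed to vary like the others. The naive libraries, the shallowest, also differed most in these genes. Levels of a few fragments cannot show a difference between subsets.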

Other observations

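The GBP genes outside the 43 members, described after their values were seen, did not change as a block against naive cells. On chromosome 3, around *Gbp2*, *Gbp3* and *Gbp7*, *Gbp5* was at 12.9 and 22.2 FPKM in the naive libraries, 72.7 and 69.7 FPKM in Th1, 7.04 and 8.28 FPKM in Th2 and 57.6 and 61.3 FPKM in Th17 libraries, and the gene listed as *Gbp1* was at 40.3 and 54.5 FPKM in the naive libraries, 211 and 227 FPKM in Th1, 16.6 and 18.4 FPKM in Th2 and 88.0 and 96.0 FPKM in Th17 libraries. Both were higher in Th1 (2.01 ± 0.22, adjusted p = 0.000209 and 2.20 ± 0.15, adjusted p = 2.00e-05) and in Th17 cells (1.75 ± 0.22, adjusted p = 0.000397 and 0.96 ± 0.15, adjusted p = 0.00120) than in naive cells, and lower in Th2 cells (-1.06 and -1.38, the first being -0.69 without naive replicate 2). On chromosome 5, around *Gbp6*, *Gbp9* fell in Th1 cells (-1.65 ± 0.17, adjusted p = 0.000132), *Gbp8* and *Gbp10* fell less (-0.51 ± 0.12, adjusted p = 0.00835 and -0.57 ± 0.21, adjusted p = 0.0469), and *Gbp4* did not pass the test (0.25 ± 0.16, adjusted p = 0.191). The *Gbp10* call was lost with any library left out except naive replicate 1 (-0.24 to -0.61, and -0.90 without naive replicate 1), and that of *Gbp8* without Th1 replicate 1 (-0.45). *Gbp11*, on the same chromosome, rose in Th1 cells (2.28 ± 0.28, adjusted p = 0.000354). Every one of these genes was higher in Th1 than in Th2 cells, by 1.12 to 3.57.

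Besides *Ifitm1*, *Ifitm2* and *Ifitm3*, other genes of the family were also detected in effector cells but at far lower levels. *Ifitm7* was at no more than 0.0271 FPKM in naive and 13.2 and 12.7 FPKM in Th1, 6.11 and 6.89 in Th17 and 3.80 and 1.63 in Th2 cells. *Ifitm6* was instead highest in Th2 cells, at 20.5 and 23.8 FPKM, against 2.13 to 4.91 FPKM in Th1 and Th17 libraries (Th1 minus Th2 -2.86 ± 0.15, adjusted p = 1.70e-05). *Ifitm5* was listed at 0 in both naive libraries and at 1.29 to 4.93 FPKM in effector libraries.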
